A study of Mus musculus with 30 samples.

Results

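The nuclear genes of the mitochondrial respiratory chain were followed in 30 B16F10 melanomas grown under the skin of mice. The genes were taken by symbol, as every row whose name begins with Nduf followed by a, b, c, s or v and a number, with Uqcr, with Cox and a digit from 4 to 8, or with Atp5. This gave 81 of the 18975 genes in the table. They comprise 35 genes of complex I, 8 of complex III, 18 of complex IV and 15 of complex V, and 5 that are not subunits: Atp5s, Atp5sl (Dmac2 in GENCODE) and the processed pseudogenes Atp5l-ps1, Atp5l-ps2 and Atp5l2-ps. Of the 18 genes of complex IV, 12 are common forms and 6 are isoforms restricted to particular tissues (Cox4i2, Cox6a2, Cox6b2, Cox7a1, Cox8b and Ndufa4l2), which leaves 70 common subunits in all. Cox7a2l, counted with complex IV, is known as a factor that joins complexes III and IV.

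The tumors grew in female C57BL/6 mice that were heterozygous for the ARE-del allele (HET, labelled ARE-del +/-) or carried the genotype label ARE-del +/+, titled WT. ARE-del lacks an AU-rich element at the 3′ end of Ifng, the gene of interferon-gamma, and is carried by the host cells, since the B16F10 cells of 1 line were injected into every mouse. From day 7 of growth the mice received an antibody 2 times a week, at 0.25 mg: anti-PD1 (against a checkpoint receptor of T cells), agonist anti-CD40 (which stimulates a receptor of dendritic cells, macrophages and B cells), both of these (the combination) or control rat IgG2A. HET mice gave 3 tumors after anti-PD1, 4 after anti-CD40, 4 after the combination and 4 after IgG, and WT mice gave 4, 3, 3 and 5 tumors after the same 4 treatments. Nothing in the labels says that replicates came from separate cultures or litters, so the spread behind a p-value is that between samples and may be technical.

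The respiratory chain sits in the inner mitochondrial membrane. Complex I takes electrons from NADH, complex III passes them to cytochrome c, complex IV hands them to oxygen, and complex V (ATP synthase) uses the proton gradient that the others build. Most subunits are encoded in the nucleus and a few in mitochondrial DNA, so each of these complexes is assembled from the products of both genomes. Several complex IV subunits exist as a common form and a form of muscle, lung or testis, and their mRNAs can show which tissues a sample holds.

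Libraries held 17.6 to 35.997 M reads, with a median of 24.9 M. The melanocyte and B16 marker list (10 genes) had a mean log2 CPM (depth-scaled read counts on a log2 scale) of 10.07 to 11.20 over the 30 libraries, with all 10 detected in every library. The content of other tissues varied far more. The mean log2 CPM of 18 keratinocyte genes ran from -2.58 to 6.26, that of 19 skeletal muscle genes from -1.64 to 4.51, and mitochondrially encoded RNA took 0.722% to 6.53% of the reads. HET IgG replicate 2 stood apart from the other libraries of its group in the respiratory genes, as described below, and the results it moves are also given without it. In bulk tumors, fewer cells of a type and less RNA per cell cannot be told apart.

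The common subunits were abundant in every tumor. The 70 mRNAs together had 11800 to 28220 CPM, with a median of 14310 CPM. All 81 genes together took 1.24% to 2.35% of the reads, with a median of 1.44%. These shares use all reads, whereas CPM uses the effective library size, so the scales differ. To compare genes, CPM was divided by the length of the longest principal transcript in kilobases, since long transcripts give more reads. On this scale of CPM per kilobase, the median over the genes was 385 in complex IV, 260.7 in complex V, 192 in complex III and 113 in complex I. These values depend on the transcript chosen: Ndufb2 of complex I (6.91 CPM per kilobase) and Atp5g1 of complex V (29.5) are the lowest common subunits of their complexes and have principal transcripts of 4371 and 4715 bases, against a median of 823.5 bases for the 70 subunits.

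In complex V the most abundant mRNA was Atp5b, the catalytic beta subunit of the F1 head, with a median of 900 CPM per kilobase, ahead of Atp5g3, 1 of 3 genes for the c subunit of the rotor ring, with 684, and Atp5a1, the alpha subunit, with 422. In complex IV Ndufa4, long counted with complex I and now placed in complex IV, had 723 CPM per kilobase, Cox4i1 had 610 and Cox8a had 552. In complex III the small subunits Uqcr10 (468) and Uqcrh (420, the hinge protein of cytochrome c1) came ahead of Uqcrb (287), while Uqcrfs1, the Rieske iron-sulfur protein, had 122. In complex I the membrane arm subunit Ndufb9 had 295 CPM per kilobase and Ndufa3, a small accessory subunit, had 166. Ndufs1, the core subunit of the NADH-oxidizing module with most of its iron-sulfur clusters, had 73.6.

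**Figure D1:**
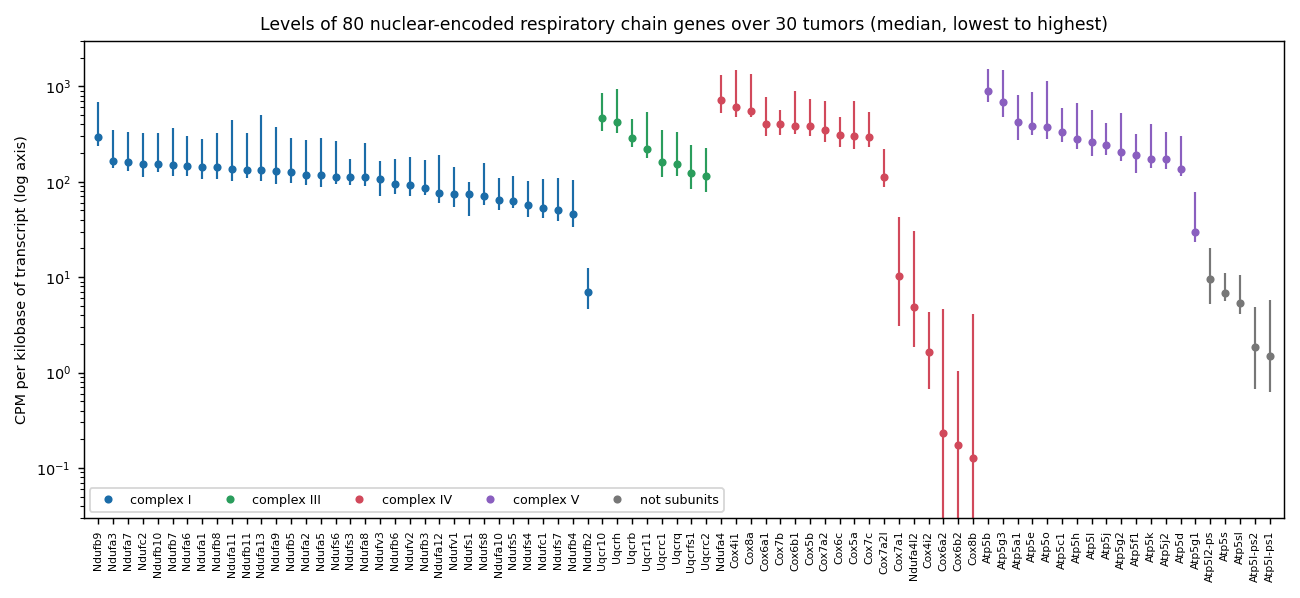
Level of 80 of the 81 genes as CPM per kilobase of transcript on a log axis; points are medians over 30 tumors and lines run from the lowest to the highest tumor, and lines that reach the axis floor end at 0. The common subunits of complex IV lie between 112 and 723, while the medians of Cox6a2, Cox6b2 and Cox8b lie below 0.24.

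Overlapping genes limit some of these values. Of the 81 genes, 29 share exonic bases with another gene, 26 of them on the other strand, and the use of strand in counting is not given in the sources used here. The partner can be the more abundant mRNA: Eef1b2, opposite Ndufs1, had a median of 566 CPM against 196 CPM for Ndufs1, and Shmt2, opposite Ndufa4l2, had 142 CPM against 4.59 CPM. The processed pseudogenes resemble Atp5l, and how shared reads were assigned is not given in the sources used here, so their values are uncertain.

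The first question was whether treatment or host genotype moved these mRNAs. None of the 79 genes that passed the filter on low values (a log2 CPM above 0 in at least 3 libraries; Cox6b2 and Cox8b did not) reached an adjusted p under 0.05 with limma in any of 13 comparisons: 6 of a treatment with IgG within a genotype, 4 of HET with WT under the same treatment, and 3 of the difference between genotypes in a treatment response (the interaction). The lowest adjusted p of a member was 0.34. The background was the same: of 15002 genes, 0 were called in each comparison (percent called 0), and limma-voom on the recovered reads also called 0. At an unadjusted p under 0.05 the share of all genes was 0.96% for HET anti-PD1, 14.9% for HET anti-CD40 and 9.81% for the HET combination, each against HET IgG; 2.75%, 5.18% and 0.413% for the same treatments against IgG in WT; 2.07% (IgG), 2.14% (anti-PD1), 3.83% (anti-CD40) and 5.56% (combination) for HET against WT; and 1.03%, 2.23% and 3.5% for the interactions of anti-PD1, anti-CD40 and the combination. Of the 79 members, 0 had an unadjusted p under 0.05 in 8 of these comparisons, 1 in 4 and 2 in 1, HET against WT under the combination. Single libraries moved these numbers. Without HET IgG replicate 2, 36 of 79 members were higher at that level in HET anti-CD40 tumors than in HET IgG tumors, beside 19.8% of all genes in either direction, and 2 of 79 in HET combination tumors, beside 7.13%. Without WT anti-CD40 replicate 1, 14 of 79 were higher in WT anti-CD40 tumors than in WT IgG tumors, beside 21.4% of all genes, and without WT IgG replicate 1, 7 of 79, beside 14.7%. No member passed the adjusted test with any single library left out.

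Under anti-CD40 the median difference from IgG was above 0 in both genotypes and in all 4 complexes, and no member passed the test. In HET tumors the median log2 difference from IgG over the 79 members was 0.16, with 70 of 79 higher, beside a median of -0.01 over all 15002 genes. By complex the medians were 0.15 for I, 0.20 for III, 0.17 for the common subunits of IV and 0.17 for V. In WT tumors the median was 0.25 with 77 of 79 higher, beside -0.01 over all genes, and the complex medians were 0.29, 0.23, 0.22 and 0.30. Both values depended on single libraries. The HET median was 0.46 with 77 of 79 higher without HET IgG replicate 2, and 0.03 with 53 of 79 higher without HET anti-CD40 replicate 4. It was 0.05 to 0.09 without each of the other IgG tumors in turn, and 0.27 without HET anti-CD40 replicate 1. The WT median was -0.05 with 22 of 79 higher without WT anti-CD40 replicate 2, 0.49 without WT anti-CD40 replicate 1 and 0.40 without WT IgG replicate 1.

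Atp5b (ENSMUSG00000025393.8, mm10 chromosome 10, 128083273 to 128090391, plus strand) shows the size of these differences. It had 1915, 1984, 1851 and 2030 CPM in the HET anti-CD40 tumors, against 1579, 2932, 1565 and 1550 CPM in HET IgG tumors. The 4 anti-CD40 tumors all lie above 3 of the 4 IgG tumors and below the other. In WT it had 1619, 2530 and 1610 CPM after anti-CD40, against 2002, 1487, 1547, 1497 and 1859 CPM after IgG, so the groups overlap. Cox4i1, the common form of the regulatory subunit 4 of cytochrome c oxidase, had 437, 529, 596 and 847 CPM in HET anti-CD40 tumors, against 372, 1130, 455 and 428 CPM in HET IgG tumors. In WT it had 367, 947 and 518 CPM after anti-CD40, against 626, 393, 383, 391 and 508 CPM after IgG. The Cox4i1 values of treated and IgG tumors overlap in both genotypes, and the highest of all, 1130 CPM, is an IgG tumor.

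Under anti-PD1 the medians were below 0, again with no member past the test. The median log2 difference from IgG was -0.15 in HET tumors, with 9 of 79 members higher, beside 0.01 over all genes, and -0.12 in WT tumors, also with 9 of 79 higher, beside -0.02 over all genes. The HET value changed sign without HET IgG replicate 2, to 0.14 with 73 of 79 higher. It was -0.26 to -0.23 without each of the other IgG tumors in turn, and -0.05 without HET anti-PD1 replicate 1. The WT value ran from -0.17 (without WT IgG replicate 2) to -0.02 (without WT IgG replicate 1), and was -0.06 without WT anti-PD1 replicate 2. The combination left the members near 0: 0.04 in HET (46 of 79 higher) and -0.02 in WT (29 of 79 higher), with the all-gene medians within 0.01 of 0 in both. Both signs depended on single libraries. The HET combination median was 0.33 with 79 of 79 higher without HET IgG replicate 2, and -0.08 with 21 of 79 higher without HET IgG replicate 1. The WT value ran from -0.08 (without WT combination replicate 2) to 0.09 (without WT IgG replicate 1). Within the comparisons the labels allow inside 1 L number (an unexplained number in the sample titles, 5 to 8), the mean difference over members was -0.42 for HET anti-PD1 against IgG in L7 (3 against 2 tumors; -0.14 pooled), -0.23 for HET anti-CD40 against IgG in L7 (3 against 2 tumors; 0.19 pooled) and -0.07 for WT anti-PD1 against IgG in L5 (3 against 5 tumors; -0.10 pooled). The 2 HET IgG tumors of L7 are replicates 2 and 3. Against replicate 3 alone, the HET differences in L7 were 0.10 for anti-PD1 (0.12 pooled without replicate 2) and 0.29 for anti-CD40 (0.45 pooled without it), so both turned sign, and 1 tumor gives no spread. Other comparisons had fewer than 2 tumors of 1 group in every L number.

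The medians of HET against WT were above 0 under each treatment, and no member passed the test. The median member difference was 0.17 under IgG (70 of 79 higher), 0.12 under anti-PD1 (62 of 79), 0.05 under anti-CD40 (59 of 79) and 0.21 under the combination (77 of 79), with all-gene medians between -0.02 and 0.02. Under IgG it was -0.13 with 7 of 79 higher without HET IgG replicate 2, and 0.28 without HET IgG replicate 1. Under anti-CD40 it was 0.36 with 79 of 79 higher without WT anti-CD40 replicate 2, and -0.18 with 13 of 79 higher without WT anti-CD40 replicate 1. It was also below 0 without WT anti-CD40 replicate 3 (-0.03) and without HET anti-CD40 replicate 4 (-0.09). Under anti-PD1 it ran from 0.07 (without HET anti-PD1 replicate 2) to 0.20 (without HET anti-PD1 replicate 1), and under the combination from 0.11 (without HET combination replicate 1) to 0.34 (without HET combination replicate 4). With the keratinocyte and skeletal muscle means as covariates it changed sign under the combination, to -0.08. With these covariates it was 0.31 under IgG, 0.15 under anti-PD1 and 0.31 under anti-CD40. With L number as a covariate the genotype difference was negative under all 4 treatments (-0.14 under IgG, -0.27 under anti-PD1, -0.39 under anti-CD40 and -0.27 under the combination). L number is largely tied to genotype: L5 holds only WT tumors, L6 holds 1 HET tumor, and L7 and L8 hold only HET tumors. No treatment has HET and WT tumors in the same L number, so no comparison of HET with WT can separate genotype from L number. The covariate values link the genotypes only through HET IgG replicate 1, the 1 HET tumor in L6. L number is tied to treatment too: all WT IgG tumors are L5, all WT anti-CD40 and WT combination tumors are L6, and all HET combination tumors are L8. In WT, the direct comparison of anti-CD40 or the combination with IgG therefore cannot separate treatment from L number. Comparisons that share a control group, such as the 3 with HET IgG, share its libraries and are not independent.

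The interactions had median member differences of -0.05 for anti-PD1, -0.09 for anti-CD40 and 0.07 for the combination, and each changed sign with the library left out. The anti-PD1 median ran from -0.16 (without HET IgG replicate 1) to 0.23 (without HET IgG replicate 2). For anti-CD40 it ran from -0.31 (without WT anti-CD40 replicate 1) to 0.20 (without WT anti-CD40 replicate 2; also 0.20 without HET IgG replicate 2). The combination median ran from -0.06 (without HET IgG replicate 1) to 0.35 (without HET IgG replicate 2). No subunit passed the test of a difference between HET and WT tumors in a treatment response, which does not show that the responses were alike.

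**Figure D2:**
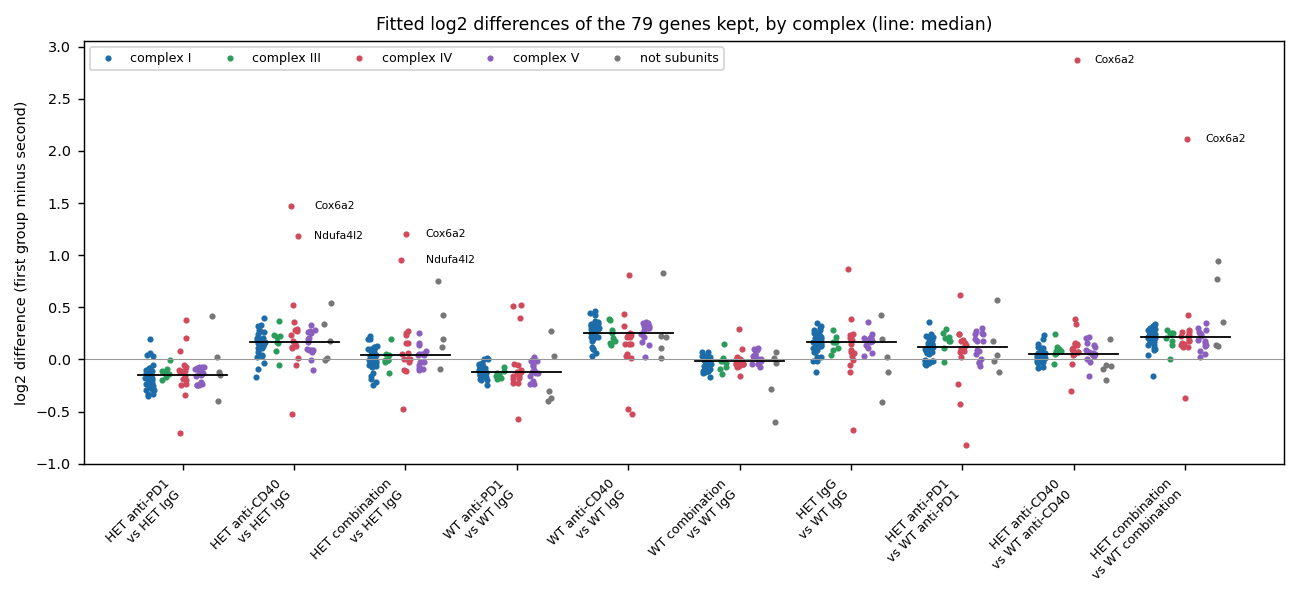
Fitted log2 difference of each of the 79 members kept, first group minus second, in the 6 treatment and 4 genotype comparisons, coloured by complex, with a line at the median. The medians over members run from -0.15 to 0.25 and the complexes lie together within a comparison, while Cox6a2 stands far above the rest in HET against WT under anti-CD40 (2.87) and the combination (2.11).

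Of single members, Ndufs1 had the lowest unadjusted p for HET against WT under anti-PD1. It had 190, 231 and 219 CPM in HET anti-PD1 tumors, against 198, 171, 116 and 192 CPM in WT anti-PD1 tumors. HET replicate 1 lies among the WT values. The log2 difference was 0.36 ± 0.16 (limma SE; unadjusted p = 0.031, adjusted p = 1), and it was -0.03 with L number as a covariate and 0.18 without WT anti-PD1 replicate 3, the tumor at 116 CPM. Under IgG the lowest p for HET against WT was that of Uqcrc2, a core protein of complex III, which had 212, 432, 201 and 199 CPM in HET IgG tumors, against 224, 202, 191, 175 and 222 CPM in WT IgG tumors. HET replicate 2 alone lies outside the WT range. The log2 difference was 0.29 ± 0.16 (limma SE; unadjusted p = 0.092, adjusted p = 1.00), and 0.01 without HET replicate 2.

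The remaining unadjusted p-values under 0.05 were those of Cox6a2, described below, and of a pair of genes that are not subunits. Atp5s, a coupling factor that is not a subunit, had 9.18, 9.10, 9.51 and 8.98 CPM in WT anti-PD1 tumors, against 13.7, 12.96, 10.1, 11.7 and 8.94 CPM in WT IgG tumors. The lowest value is an IgG tumor, and 4 of the 5 IgG tumors lie above all anti-PD1 tumors. The log2 difference was -0.30 ± 0.14 (limma SE; unadjusted p = 0.048, adjusted p = 1.00). The pseudogene Atp5l-ps1 had 1.78, 0.442, 0.602 and 0.507 CPM in HET combination tumors, against 0.326, 0.284 and 0.387 CPM in WT combination tumors. These groups do not overlap, and the log2 difference was 0.95 ± 0.44 (limma SE; unadjusted p = 0.041, adjusted p = 0.82), with an interaction of 1.36 ± 0.58 (unadjusted p = 0.029, adjusted p = 0.99). Without HET combination replicate 1 they were 0.53 and 0.94. These are differences of few reads.

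The subunits varied over tumors far more as a block than against each other. The median SD of a subunit's log2 CPM over the 30 libraries was 0.35, beside 0.37 for all genes kept (0.31 and 0.35 without HET IgG replicate 2). After the mean of the 70 subunits in each library was subtracted, the median SD was 0.13 and the highest was 0.29, that of Ndufs1. Around the group means, the median residual SD was 0.37 for the members and 0.37 for all genes kept. The lowest residual SD of each complex was that of Ndufs1 (0.20) in I, Uqcrb (0.21) in III, Cox7b (0.22) in IV and Atp5j (0.24) in V. The highest was that of Ndufa13 (0.50), Uqcr11 (0.45), Cox6a2 (1.19) and Atp5o (0.45) in the same complexes, and among the genes that are not subunits Atp5s had the lowest (0.19) and Atp5l-ps2 the highest (0.58). Across the 70 subunits, which share the same libraries, log2 transcript length and SD had Pearson r = -0.33, a description without a test.

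**Figure D3:**
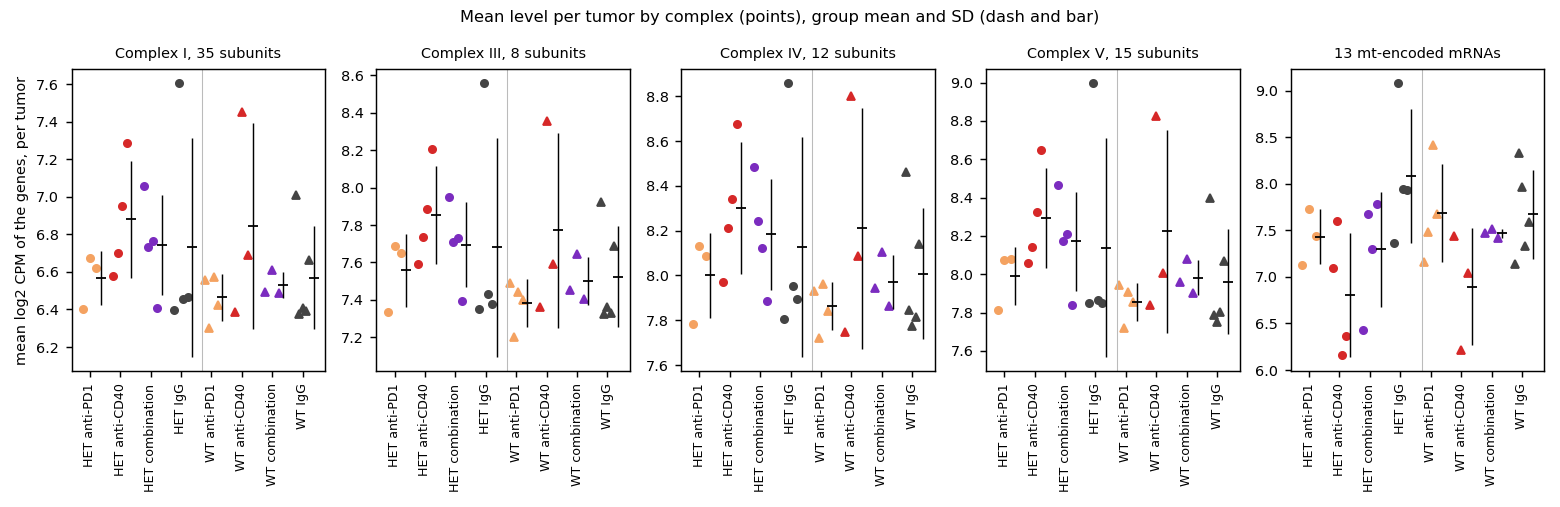
Mean log2 CPM of the common subunits of each complex, and of the 13 mitochondrially encoded mRNAs, in each of 30 tumors (points), with the group mean and SD (dash and bar). In all 4 nuclear panels HET IgG has 1 tumor far above the other 3, WT anti-CD40 has 1 far above the other 2, and the complexes place the tumors alike.

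Over the 70 common subunits, the mean log2 CPM was 7.23 ± 0.16 in HET anti-PD1 (SD, n = 3), 7.54 ± 0.29 in HET anti-CD40 (n = 4), 7.40 ± 0.26 in the HET combination (n = 4) and 7.38 ± 0.57 in HET IgG (n = 4). WT tumors had 7.11 ± 0.12 (anti-PD1, n = 4), 7.48 ± 0.54 (anti-CD40, n = 3), 7.20 ± 0.09 (combination, n = 3) and 7.22 ± 0.28 (IgG, n = 5). The order from high to low was HET anti-CD40, WT anti-CD40, HET combination, HET IgG, HET anti-PD1, WT IgG, WT combination and WT anti-PD1, and each neighbouring pair lies closer together than the larger SD of the pair. Without replicate 2, HET IgG had 7.10 ± 0.04 (SD, n = 3), the lowest of the 8.

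On the scale of the deposited values HET IgG replicate 2 had the highest subunit mean of the 30 tumors, 8.23, against 7.06, 7.13 and 7.11 in the other HET IgG tumors. All 70 subunits were above the mean of the other 3, by 0.15 to 2.04 on the log2 scale with a median of 1.16. The increments were unequal. Ndufa13, a subunit of the complex I membrane arm also known as GRIM-19, had 630 CPM against 145, 161 and 154 CPM, and Atp5o, the stalk subunit that confers oligomycin sensitivity, had 961 CPM against 306, 290 and 253 CPM. Cox7b and Ndufa4, singled out here after their values were seen, were 0.15 above the other 3 on the log2 scale in both cases. The same library had the highest share of reads from mitochondrially encoded genes (6.53%), the highest melanocyte score (11.20) and the most genes without a read (1554, against 195 to 1141 in the other 29). Its 13 tricarboxylic acid cycle genes had a mean log2 CPM of 8.40, with 7.51 as the lowest of its group, and its 6 complex II genes 7.67, with 6.60 as the lowest. The ratio of effective library size to reads was 0.767 in this library, against 0.941 to 1.052 in the other 29. CPM is divided by the effective library size, so a lower ratio gives a higher CPM for the same share of reads. The CPM and log2 increments given above include this scaling, whereas the shares of reads do not. The part of depth and of RNA composition in this library's values was not tested.

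The next 5 subunit means belonged to tumors of 4 groups, each with a high keratinocyte score. WT anti-CD40 replicate 2 had a subunit mean of 8.08 and a keratinocyte score of 6.26. HET anti-CD40 replicate 4 had 7.92 and 5.12, HET combination replicate 1 had 7.71 and 3.87, WT IgG replicate 1 had 7.66 and 3.89, and HET anti-CD40 replicate 3 had 7.59 and 4.70. The remaining 24 tumors had subunit means from 6.95 to 7.42 and keratinocyte scores from -2.58 to 3.02, and HET IgG replicate 2 had a keratinocyte score of -0.39. These 5 tumors also had the 5 highest scores of 82 cytosolic ribosomal protein genes (8.78 to 9.44), and the lowest shares of mitochondrially encoded reads (0.722% to 1.32%). The groups differed in skin content: the mean keratinocyte score was 1.54 in HET anti-CD40 tumors and 1.74 in HET combination tumors, against -1.94 in HET IgG tumors, and 2.47 in WT anti-CD40 tumors, against -0.81 in WT IgG tumors. The WT combination tumors had keratinocyte scores of -2.29, -2.415 and -2.27. With the keratinocyte and skeletal muscle scores as covariates, the median member difference was -0.08 for HET anti-CD40, -0.26 for the HET combination and -0.11 for WT anti-CD40, each against IgG. The part of skin in the subunit levels was not tested beyond these values.

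**Figure D4:**
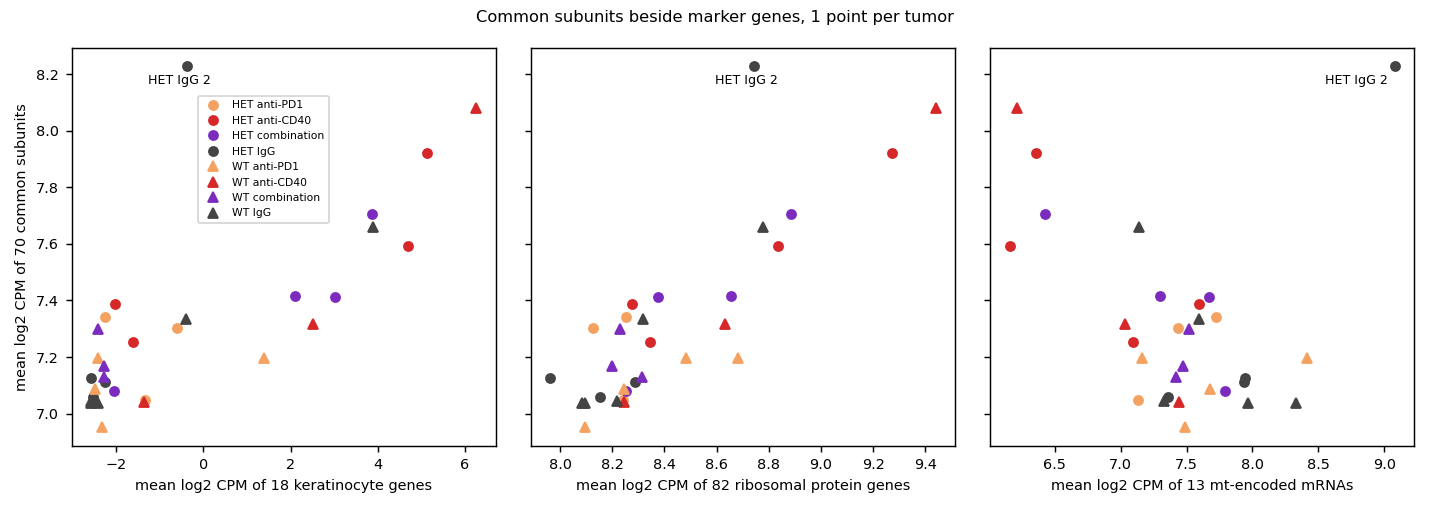
Mean log2 CPM of the 70 common subunits (vertical) beside the mean log2 CPM of 18 keratinocyte, 82 cytosolic ribosomal protein and 13 mitochondrially encoded genes (horizontal), 1 point per tumor, coloured by treatment with circles for HET and triangles for WT. HET IgG replicate 2 lies at 8.23 with a keratinocyte score of -0.39 and the highest mitochondrially encoded mean, 9.08, while WT anti-CD40 replicate 2 lies at 8.08 with a keratinocyte score of 6.26.

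Mitochondrially encoded RNAs were lower than in HET IgG tumors in the medians of all 3 HET treatments, and HET IgG replicate 2 had the highest mean of these RNAs too. The 19 mt- genes kept are 13 mRNAs, the ribosomal RNAs mt-Rnr1 and mt-Rnr2, and tRNAs with medians below 1 CPM. The list of 19 mt- genes had a median log2 difference of -1.15 in HET anti-CD40 tumors, -0.77 in HET combination tumors and -0.58 in HET anti-PD1 tumors against HET IgG, and 13, 5 and 2 of the 19 had an unadjusted p under 0.05, all lower, beside the 14.9%, 9.81% and 0.96% of all genes given above. Without HET IgG replicate 2 the medians were -0.84, -0.33 and -0.19, with 9, 0 and 1 of 19 lower at that level, beside 19.8%, 7.13% and 1.34% of all genes. In WT anti-CD40 tumors against WT IgG the median was -0.58, with 3 of 19 lower at that level beside 5.18%, and it was -0.35 with WT anti-CD40 replicate 2 left out. None of the 19 was called after adjustment. For complex I, the log2 ratio of summed mitochondrial to summed nuclear CPM was -0.18 ± 0.97 in HET anti-CD40 tumors, against 1.21 ± 0.46 in HET IgG tumors (SD, n = 4 each), and -0.22 ± 1.13 (n = 3) in WT anti-CD40 tumors, against 0.82 ± 0.62 (n = 5) in WT IgG tumors. For complex IV it was 0.17 ± 1.30 in HET anti-CD40 tumors, against 1.96 ± 0.56 in HET IgG tumors (SD, n = 4 each), and 0.23 ± 1.46 (n = 3) in WT anti-CD40 tumors, against 1.46 ± 0.83 (n = 5) in WT IgG tumors. Complex III, with mt-Cytb as its single mitochondrial gene, had 0.50 ± 0.88 in HET anti-CD40 tumors, against 1.84 ± 0.52 in HET IgG tumors (SD, n = 4 each). Without replicate 2 the HET IgG ratios were 1.07 ± 0.45 for complex I, 1.70 ± 0.29 for complex IV and 1.61 ± 0.33 for complex III (SD, n = 3). No test was run on these ratios, and the group ranges of complex I overlap in both genotypes. For complex V the mitochondrial genes were listed low, with medians of 80.2 CPM for mt-Atp6 and 5.27 CPM for mt-Atp8 beside 8550 CPM for mt-Co1. In complex IV mt-Co2 (median 166 CPM) and mt-Co3 (115 CPM) were also far below mt-Co1, so its mitochondrial sum was mostly mt-Co1. How reads shared with nuclear copies were assigned is not given in the sources used here.

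The other lists of the pathway held no called gene. Complex II (6 genes kept, among them Sdha and Sdhb, which oxidize succinate), cytochrome c and c1 (2 genes), the assembly factors of complexes I (13), III (6), IV (18) and V (3), the tricarboxylic acid cycle (13) and regulators of mitochondrial biogenesis (11) had 0 genes called in the 13 comparisons. Against HET IgG, the medians in HET anti-CD40 tumors were 0.13 for complex II and 0.06 for the cytochromes. For the assembly of complexes I, III, IV and V they were 0.20, 0.03, 0.20 and 0.01. For the tricarboxylic acid cycle and the regulators they were -0.01 and 0.03. Without HET IgG replicate 2 the medians were 0.33, 0.37, 0.22, 0.09, 0.27, 0.14, 0.19 and -0.03 in the same order of lists. The 82 cytosolic ribosomal protein genes, which are no part of the respiratory chain, had 0.35, with 17 of 82 higher at an unadjusted p under 0.05 beside 14.9% of all genes in either direction. Without HET IgG replicate 2 this was 0.53, with 55 of 82 higher beside 19.8%, and without HET anti-CD40 replicate 4 it was 0.15. In WT anti-CD40 tumors against WT IgG these 82 had a median of 0.46, with 16 of 82 higher beside 5.18%. Leaving out WT anti-CD40 replicate 2 gave 0.13, and leaving out replicate 1 of that group gave 0.73. The 20 hypoxia and glycolysis genes had medians from -0.30 to 0.22 over the 10 treatment and genotype comparisons, and from -0.47 to 0.42 with single libraries left out.

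The tissue-restricted isoforms of complex IV were described apart from the common subunits. Cox6a2 and Cox8b are the heart and skeletal muscle forms of subunits whose common forms are Cox6a1 and Cox8a, and Cox7a1 is the muscle form beside Cox7a2. Cox4i2 is known from lung and from oxygen-sensing smooth muscle cells, Cox6b2 from testis, and Ndufa4l2 is a hypoxia-induced relative of Ndufa4. All were scarce. As a percent of the summed CPM per kilobase of the isoform and its common form, the median over tumors was 2.57% for Cox7a1, 0.576% for Ndufa4l2, 0.252% for Cox4i2, 0.0613% for Cox6a2, 0.0418% for Cox6b2 and 0.024% for Cox8b. The highest single tumor reached 5.76% for Cox7a1 (HET IgG replicate 2), 2.34% for Ndufa4l2 (WT anti-PD1 replicate 3), 0.826% for Cox6a2 (HET IgG replicate 4), 0.668% for Cox4i2 (WT anti-PD1 replicate 3), 0.574% for Cox8b (HET anti-CD40 replicate 4) and 0.303% for Cox6b2 (WT IgG replicate 4).

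Cox6a2 (ENSMUSG00000030785.7, mm10 chromosome 7, 128205435 to 128206387, minus strand, 3 exons, opposite Itgad) had the largest difference between genotypes of any member tested. It had 0.758, 0.22, 1.10 and 3.12 CPM in HET anti-CD40 tumors, against 0.0416, 0.0479 and 0.0781 CPM in WT anti-CD40 tumors. The groups do not overlap, and the WT values stand on 1, 1 and 2 reads. The log2 difference was 2.87 ± 0.88 (limma SE; unadjusted p = 0.0030, adjusted p = 0.52), so it did not pass the test over 15002 genes. Under the combination it had 0.699, 0.221, 1.52 and 1.11 CPM in HET tumors, against 0.0466, 0.162 and 0.141 CPM in WT tumors, again without overlap. The log2 difference there was 2.11 ± 0.88 (unadjusted p = 0.023, adjusted p = 0.77). Under anti-PD1, HET tumors had 0.153, 0.0886 and 0.185 CPM, against 1.03, 0.102, 0.186 and 0 CPM in WT tumors, and under IgG HET tumors had 0.131, 0.119, 0.0908 and 2.15 CPM, against 0.322, 0, 0.283, 0.100 and 0.0529 CPM in WT tumors. In these 2 pairs the groups overlap, and single tumors stand high in each.

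Skeletal muscle content moved with these Cox6a2 values. The skeletal muscle score was 3.08 ± 1.54 (SD, n = 4) in HET anti-CD40 tumors, against -0.34 ± 1.25 (n = 3) in WT anti-CD40 tumors, and 2.77 ± 0.81 (n = 4) in HET combination tumors, against -0.39 ± 1.27 (n = 3) in WT combination tumors. Of its 20 markers 19 passed the filter, and the contractile genes Acta1, Ckm and Myh4 reached 139, 70.3 and 98.0 CPM. Across the 30 tumors Cox6a2 followed the score with Pearson r = 0.92 and Spearman rho = 0.87 (two-sided permutation tests, p = 1e-05 each, the smallest that 100000 permutations can give; adjusted p = 7.5e-05 over 15 relations). Without the 2 tumors farthest from the median score r was 0.90. Within L numbers r was 0.89 in L5, 0.51 in L6 and 0.93 in L7 (8 tumors each) and 0.98 in L8 (6 tumors). With both tissue scores in the fit, the HET against WT difference of Cox6a2 was 0.81 under anti-CD40 and 0.06 under the combination. With L number as a covariate it was 2.11 under anti-CD40 and -0.82 under the combination. Genotype and L number cannot be separated in these comparisons.

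Cox8b (ENSMUSG00000025488.8, chromosome 7, 140898945 to 140900446, minus strand) had the same relation at still lower levels. It had 0.227, 0.147, 0.441 and 1.496 CPM in HET anti-CD40 tumors, against 0.0416, 0 and 0.117 CPM in WT anti-CD40 tumors, which do not overlap. Under the combination it had 0.159, 0.0552, 0.283 and 0.203 CPM in HET tumors, against 0.0466, 0 and 0.0351 CPM in WT tumors. It failed the filter on low values and was therefore not tested between groups. Across tumors its correlation with the muscle score was r = 0.81 and rho = 0.78 (permutation tests, p = 1e-05 each; adjusted p = 7.5e-05), 0.81 without the 2 farthest tumors, and 0.78, 0.35, 0.79 and 0.79 in L5, L6, L7 and L8.

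Cox7a1 (ENSMUSG00000074218.2, chromosome 7, 30184144 to 30186078, plus strand), also named a muscle form, did not follow muscle. It had 3.37, 6.75, 2.50 and 4.01 CPM in HET anti-CD40 tumors, against 3.898, 16.8, 4.63 and 3.28 CPM in HET IgG tumors, and its highest value was in HET IgG replicate 2, whose muscle score was -0.61. The log2 difference between these groups was -0.52 ± 0.47 (limma SE; unadjusted p = 0.28, adjusted p = 0.58). Without HET IgG replicate 2 it was -0.0027 ± 0.44 (adjusted p = 1.00). Its correlation with the muscle score was r = -0.33 and rho = -0.29 (permutation tests, adjusted p = 0.15 and 0.24), and r was -0.35 without the 2 farthest tumors. Within L numbers r ran from -0.90 in L5 to 0.16 in L6. With group means subtracted r was -0.51 (adjusted p = 0.012). With the hypoxia and glycolysis score Cox7a1 had r = 0.44 (adjusted p = 0.040) and rho = 0.38 (adjusted p = 0.11), while Cox6a2 had r = -0.50 (adjusted p = 0.022) and rho = -0.42 (adjusted p = 0.079). With group means subtracted the Cox6a2 value was -0.34 (adjusted p = 0.16), which no longer passed. The Cox7a1 value was then r = 0.57 (permutation test, adjusted p = 0.0043) and rho = 0.54 (adjusted p = 0.011). Without HET IgG replicate 2, and with no means subtracted, the Cox7a1 r was 0.34. In L5 and L6, where 8 tumors each were measured, these r values were 0.36 and 0.32 for Cox7a1 and -0.15 and -0.15 for Cox6a2, and in L7 and L8 they were 0.61 and 0.73 for Cox7a1 and -0.70 and -0.20 for Cox6a2.

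**Figure D5:**
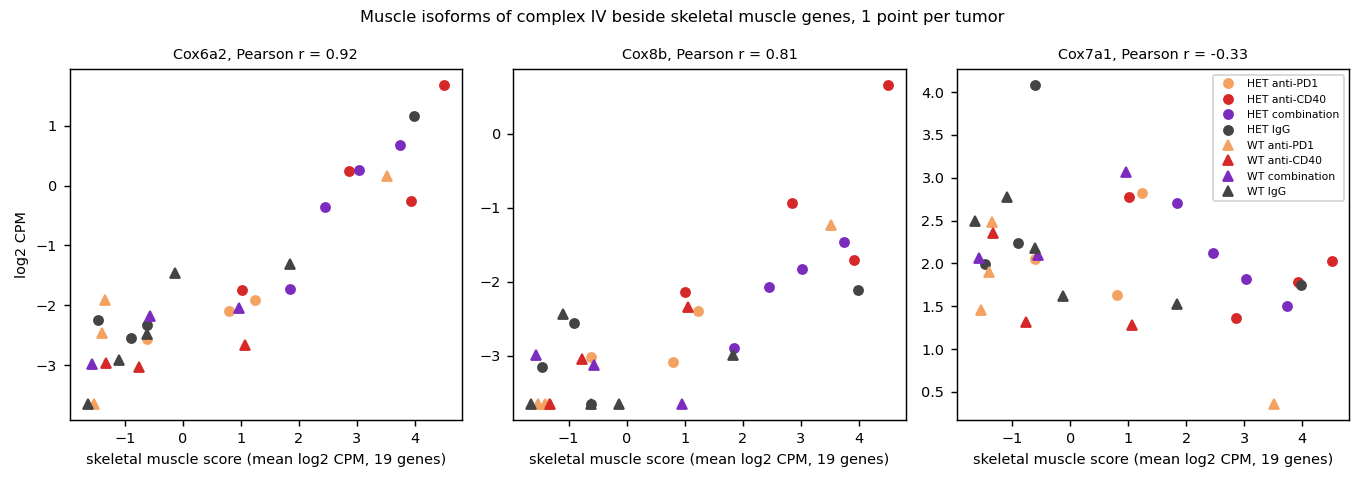
Log2 CPM of Cox6a2, Cox8b and Cox7a1 (vertical) beside the skeletal muscle score, the mean log2 CPM of 19 muscle genes (horizontal), 1 point per tumor, coloured by treatment with circles for HET and triangles for WT. Cox6a2 and Cox8b climb with the score (r = 0.92 and 0.81), with tumors that have no read at -3.64, whereas Cox7a1 does not (r = -0.33).

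The upstream windows of Cox8b and Cox7a1 and of their common partners are shown, because Cox8b followed the muscle score and Cox7a1 did not. The relation of the common partners Cox8a and Cox7a2 to that score was not measured. The 250 bases before the transcript start are given 5′ to 3′ on the gene's strand, from RefSeq on GRCm38.p6, with E-boxes (CANNTG, the motif bound by myogenic factors) and ETS matches (CCGGAA on either strand) in capitals. The windows lie at chr7:140900447-140900696 on the minus strand for Cox8b, chr19:7217617-7217866 on the minus strand for Cox8a, chr7:30183921-30184170 on the plus strand for Cox7a1 and chr9:79759854-79760103 on the minus strand for Cox7a2.
Cox8b: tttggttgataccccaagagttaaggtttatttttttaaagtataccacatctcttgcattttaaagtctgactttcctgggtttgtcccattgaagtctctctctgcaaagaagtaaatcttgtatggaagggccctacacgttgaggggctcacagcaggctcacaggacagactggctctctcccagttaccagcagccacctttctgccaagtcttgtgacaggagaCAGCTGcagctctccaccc
Cox8a: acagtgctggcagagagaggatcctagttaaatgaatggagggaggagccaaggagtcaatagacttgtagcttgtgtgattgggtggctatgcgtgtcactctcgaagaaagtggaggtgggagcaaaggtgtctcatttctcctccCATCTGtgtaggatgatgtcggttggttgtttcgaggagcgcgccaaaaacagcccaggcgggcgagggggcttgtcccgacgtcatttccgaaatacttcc
Cox7a1: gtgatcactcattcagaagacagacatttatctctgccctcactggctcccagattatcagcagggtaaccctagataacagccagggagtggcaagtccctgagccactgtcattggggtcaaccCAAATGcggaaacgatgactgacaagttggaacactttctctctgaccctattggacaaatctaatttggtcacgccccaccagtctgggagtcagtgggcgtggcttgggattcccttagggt
Cox7a2: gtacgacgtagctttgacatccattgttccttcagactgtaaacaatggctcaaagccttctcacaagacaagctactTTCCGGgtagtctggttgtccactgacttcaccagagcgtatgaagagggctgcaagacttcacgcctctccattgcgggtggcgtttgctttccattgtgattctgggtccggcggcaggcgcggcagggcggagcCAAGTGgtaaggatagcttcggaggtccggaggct
Each of the 4 windows holds 1 E-box, and only that of Cox7a2 holds an ETS match. No overlap between these matches occurs. Over the windows of 59 matched common subunits (64 windows), an ETS match was present in 29.7%, against 12% of all 32851 windows of the table, and the NRF1 word GCGCATGC, searched on both strands, in 10.9% against 2.26%. An E-box was present in 60.9% against 66.2%, a TATAAA word in 9.38% against 12.4%, and a MEF2 match in 0 of 64 windows against 1.69%. These are matches of letters, not sites, and no test was run on the shares. Entries for Cox6a2, Cox4i2, Ndufa4l2 and Cox4i1 were not used here.

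Cox4i2 was low, with 0.871, 1.03, 2.54 and 1.97 CPM in HET anti-CD40 tumors, against 0.491, 1.37, 1.32 and 1.06 CPM in HET IgG tumors. Its highest value was 3.12 CPM in WT anti-PD1 replicate 3. With the score of 10 mural cell genes (pericytes and smooth muscle) it had r = 0.59 (permutation test, adjusted p = 0.0055) but rho = 0.29 (adjusted p = 0.24). The r was 0.20 without the 2 farthest tumors, HET IgG replicate 1 and WT anti-PD1 replicate 3, so its size depended on those tumors. With group means subtracted r was 0.55 (permutation test, adjusted p = 0.0061) and rho was 0.43 (adjusted p = 0.053). That r was 0.41 without the 2 tumors farthest on the subtracted score. Without HET IgG replicate 2, and with no means subtracted, r was 0.62. Within L numbers r was 0.73, 0.71, 0.44 and 0.06 in L5, L6, L7 and L8.

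Ndufa4l2 had 2.96, 4.00, 9.16 and 14.0 CPM in HET anti-CD40 tumors, against 1.74, 2.44, 3.13 and 4.03 CPM in HET IgG tumors. The groups overlap, and the log2 difference was 1.18 ± 0.58 (limma SE; unadjusted p = 0.053, adjusted p = 0.34), the lowest adjusted p of any member. In WT it had 2.96, 28.3 and 5.47 CPM after anti-CD40, against 6.11, 3.36, 2.89, 9.72 and 2.75 CPM after IgG, with its highest value in the tumor of the highest keratinocyte score. Its correlation with the hypoxia and glycolysis score was r = -0.04 and rho = -0.16 (permutation tests, adjusted p = 0.85 and 0.54), r was -0.09 without the 2 farthest tumors, and within L numbers it ran from -0.33 in L5 to 0.50 in L8. Shmt2 on the opposite strand is far more abundant, so part of these reads may not belong to Ndufa4l2 if strand was not used. Cox6b2, the second member that failed the filter, ranged from 0 to 0.601 CPM, with a median of 0.102 CPM.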

How the data were processed

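RNA sequencing of 30 tumors in 8 groups was used. The submitters' processing notes name STAR, edgeR and the mm10 build, without versions. The deposited values are log2 CPM made by the authors, to which, from the values, a library-scaled prior of 2 reads had been added. Every value could be taken back to whole reads (tolerance 0.01 reads, 100% of values), 17.6 M to 35.997 M per library, so 1 read is worth 0.0276 to 0.0596 CPM. CPM values in the text come from these reads.

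The filter kept genes whose log2 CPM exceeded 0 in 3 or more libraries (15002, with 79 of the 81 members). Means of the 8 groups were fitted to the deposited log2 values with limma 3.58.1 (intensity trend) in R 4.3.3, with Benjamini-Hochberg adjustment over all genes kept and a threshold of 0.05. Alternatives were limma-voom with median-of-ratios scaling, no filter, a prior count of 0.5, a replicate block, L number or tissue scores as covariates, library weights, and leaving out each library. Leaving out libraries for the gene lists, ratios, L numbers and further named members was added after the data were seen. In simulated data, used to check the fit, known changes were recovered. Scores are mean log2 values of a list. Correlations used 100000 permutations (Python 3.11.15, scipy 1.17.1). Lengths and coordinates come from GENCODE vM21 (mm10), with all 81 identifiers found.

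Named members are the 3 with the highest CPM per kilobase in each complex, the isoform pairs of complex IV, the highest, lowest and lowest-p member of comparisons, those with the lowest and highest residual spread, and those that failed the filter; 1 of them is not reported here. The members, lists and rules were chosen with earlier results of these data known.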

Additional observations from a re-analysis of the deposited data

Results flagged for a closer look

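Of 55 groups of 4 or 5 tumors tested over 11 measures, 8 held a tumor far from the others by Dixon's test, and chance flags about 1 in 20 groups. In 5 measures that share genes, the same tumor stood apart. HET IgG replicate 2 had a mean log2 CPM of 8.23 over all 70 subunits, against 7.06 to 7.13 in the other 3 tumors of its group. It had 7.61 in complex I (the others 6.39 to 6.47), 8.56 in complex III (7.35 to 7.43), 8.86 in complex IV (7.80 to 7.95) and 8.998 in complex V (7.85 to 7.86).

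The other tumors that stood apart did so in isoforms of complex IV. Cox6a2 had a log2 CPM of 1.16 in HET IgG replicate 4, against -2.55 to -2.25 in the rest of the group, and this tumor had a skeletal muscle score of 3.98. Cox8b had -1.24 in WT anti-PD1 replicate 1, against -3.64 (no read) in the other 3, with a skeletal muscle score of 3.52. With those 3 tied at the floor, any read in the remaining tumor gives this flag, so the chance rate above does not apply to it. Cox4i2 had 1.68 in WT anti-PD1 replicate 3, against 0.36 to 0.49 in the other 3.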

How the results depend on the processing

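No member was called in any of the 13 comparisons under the alternatives run. Numbers of called genes stayed at 0 in most of them, limma-voom included. With library weights, whose fit stopped before convergence, 50 genes were called for HET anti-PD1, 60 for HET anti-CD40 and 407 for the HET combination against HET IgG, and 23 for HET against WT under the combination. With single libraries left out, 0 to 1 genes were called for HET anti-PD1, 0 to 1 for HET anti-CD40 and 0 to 6 for the HET combination against HET IgG, and 0 elsewhere. The median member difference was -0.11 for WT anti-CD40 against IgG and -0.39 for the combination interaction with tissue scores as covariates, -0.27, -0.39 and -0.27 for HET against WT under anti-PD1, anti-CD40 and the combination with L number as a covariate, and 0.24 for the anti-CD40 interaction with library weights; the cause was not tested. Leaving out libraries moved these medians between -0.31 and 0.49. Replicate numbers did not pair the samples (same-numbered tumors had correlations of deviations from -0.79 to 0.79), and with the replicate block 0 genes were called in each comparison. For correlations, Cox6a2 with hypoxia had r = -0.34 (permutation test, adjusted p = 0.16) and Cox7a1 with muscle -0.51 (0.012) with group means subtracted, and Cox8b with hypoxia had r = -0.43 (0.047) at a prior count of 0.5. Genes under 1 CPM rest on few reads, which limits Cox6a2, Cox6b2 and Cox8b.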
